A study of Rattus norvegicus with 6 samples.

Results

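The smooth muscle genes described here are Acta2, Myh11, Des, Tagln, Actg2, Cnn1 and Lmod1, 7 genes that mark the muscle layers lying under the lining of the colon. They were chosen by symbol, as a measure of how much muscle came along with the epithelial layer. 6 of the 7 had a row in the deposited table, among 12340 genes in all, and Cnn1, which encodes calponin, had none and is not analysed here. 4 of the 7 (Des, Myh11, Tagln and Lmod1) averaged at least 1 FPKM over the 6 animals, the level set for testing. FPKM is a count of fragments divided by the length of the transcript and by library size, so levels of different genes are compared per length.

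All animals were adult male Wistar rats that had undergone surgical ablation of the pineal gland, which takes away their nightly output of melatonin, the pineal hormone. 3 melatonin animals (numbers 4 to 6) were given 1 mg/kg of melatonin, and 3 vehicle animals (numbers 1 to 3) were given 2.5% ethanol in PBS, both into the abdominal cavity at the start of subjective night. The inner epithelial layer of the colon was taken 4 h later, and each animal gave 1 library of polyadenylated RNA. The depth of each library, estimated from the steps between low values, was 3280000 to 3610000 mapped fragments.

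Smooth muscle contracts when myosin heavy chain 11, the product of Myh11, pulls on thin filaments built from the actins of Acta2 and Actg2. Desmin, from Des, forms the intermediate filaments that tie the contractile units together, transgelin (Tagln) and calponin (Cnn1) bind the actin filament, and leiomodin (Lmod1) helps to build it. In the gut wall the outer muscle coat and the thin muscularis mucosae beneath the crypts express these genes, and Acta2 and Actg2 rank among the most abundant messages of visceral smooth muscle. Pericytes and myofibroblasts share part of the set, Acta2 and Tagln in particular.

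The labelled tissue was borne out by its markers, and the muscle genes lay far below them. 11 of 12 epithelial markers had a row, and together they took 2.41% to 2.68% of all FPKM in a library, with Krt8, a keratin, at 2895 to 3592 FPKM. The smooth muscle genes together took 0.00183% to 0.00315%. They did not act as a block: Acta2 and Actg2 lay at or near 0, while Myh11, Des, Tagln and Lmod1 lay between 0.98 and 7.02 FPKM in every library. With its actins at or near 0, the set is called here by its genes and not taken as a measure of smooth muscle cells. In bulk RNA, fewer cells of a type and less RNA per cell cannot be told apart.

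The actins come first, since they separate the set. Acta2, smooth muscle alpha-actin, was listed at 0.21, 0 and 0.20 FPKM in melatonin animals 4, 5 and 6, and at 0 in the 3 vehicle animals. Actg2, the gamma-actin of visceral muscle, was listed at 0, 0.23 and 0 FPKM in melatonin animals 4, 5 and 6, and at 0 in the 3 vehicle animals. Each of these values above 0 corresponds to 1 estimated read. Over the 6 libraries Acta2 rested on 2 reads, a pooled level of 0.0690 FPKM with an exact 95% Poisson interval of 0.00835 to 0.249. Actg2 rested on 1 read, a pooled level of 0.0395 FPKM with an interval of 0.00100 to 0.220. The intervals cover counting error only. A library listed at 0 allows up to 3 reads, which is 0.604 to 0.665 FPKM for Acta2 and 0.692 to 0.762 FPKM for Actg2. The authors' deposited table gives log2 ratios of melatonin over vehicle of 3.81 for Acta2 and 3.06 for Actg2, which set these 1 or 2 reads against a vehicle mean written as 0.01.

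Set against Acta2 per length and over all 6 libraries, Des was 72.3-fold higher (exact 95% interval 19.8 to 600.3). The ratio was 44.7 for Myh11 (interval 12.3 to 370.7), 44.0 for Tagln (interval 11.7 to 370.7) and 21.7 for Lmod1 (interval 5.88 to 181.1). These intervals, from pooled reads, also cover counting error only and leave out the spread between animals. Acta1, the actin of skeletal muscle, stood at 1.16 to 3.39 FPKM in melatonin animals and 2.10 to 3.71 FPKM in vehicle animals, on 75 estimated reads in all, so that it lay above both smooth muscle actins in every library. Actins are closely related proteins. How alike their transcripts are was not compared, and the way reads were divided among these is not given in the sources used here. These low actin values are therefore uncertain. Of the 7 striated muscle genes with a row, 6 were at 0 in at least 4 libraries, and Acta1 was the exception. Myl1, a fast muscle myosin light chain, was listed at 2.22 FPKM in melatonin animal 4 and at 0 elsewhere, and the troponin gene Tnni2 at 1.3 FPKM in melatonin animal 5 and 0.44 FPKM in vehicle animal 3.

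The promoters of the actin genes are shown because the CArG box, the site bound by serum response factor (SRF), is the element that smooth muscle genes are best known to share. The 4 stretches below hold the 150 bases before the start of each gene, from RefSeq on build GRCr8, written 5′ to 3′ on the gene's own strand. They lie at chr1:241172504-241172653 (minus strand), chr4:117594040-117594189 (minus strand), chr19:68784195-68784344 (minus strand) and chr10:106120952-106121101 (minus strand). Capitals mark a CArG box or the same box with 1 C or G in its core.
Acta2: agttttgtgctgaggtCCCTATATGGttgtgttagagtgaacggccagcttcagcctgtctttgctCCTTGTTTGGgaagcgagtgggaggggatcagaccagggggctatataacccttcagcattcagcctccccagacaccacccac
Actg2: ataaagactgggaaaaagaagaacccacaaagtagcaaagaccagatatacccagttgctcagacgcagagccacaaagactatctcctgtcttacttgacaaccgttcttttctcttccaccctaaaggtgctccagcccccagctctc
Acta1: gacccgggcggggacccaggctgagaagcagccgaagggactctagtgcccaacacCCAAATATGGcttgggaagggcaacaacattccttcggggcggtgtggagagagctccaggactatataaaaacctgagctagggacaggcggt
Actg1: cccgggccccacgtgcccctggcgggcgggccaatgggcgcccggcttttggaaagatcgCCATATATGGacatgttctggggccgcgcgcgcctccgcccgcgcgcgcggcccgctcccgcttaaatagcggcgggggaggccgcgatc
The 150 bases of Acta2 held 2 boxes with 1 C or G in the core, starting 134 and 84 bases before the start site, and those of Actg2 held neither kind. Actg1, a cytoplasmic actin that stood at 1237 to 2484 FPKM, held a CArG box that starts 90 bases before its start site, and Acta1 held one that starts 94 bases before it. Over the 250 bases before the start, 1.50% of 33469 rat promoters hold a CArG box on either strand and 6.84% hold a box with 1 C or G in the core. Of the 7 members, 4 (Acta2, Actg2, Des and Cnn1) had a promoter entry, and none of the 4 held the CArG box itself in that window. A match or its absence describes these letters only.

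**Figure D1:**
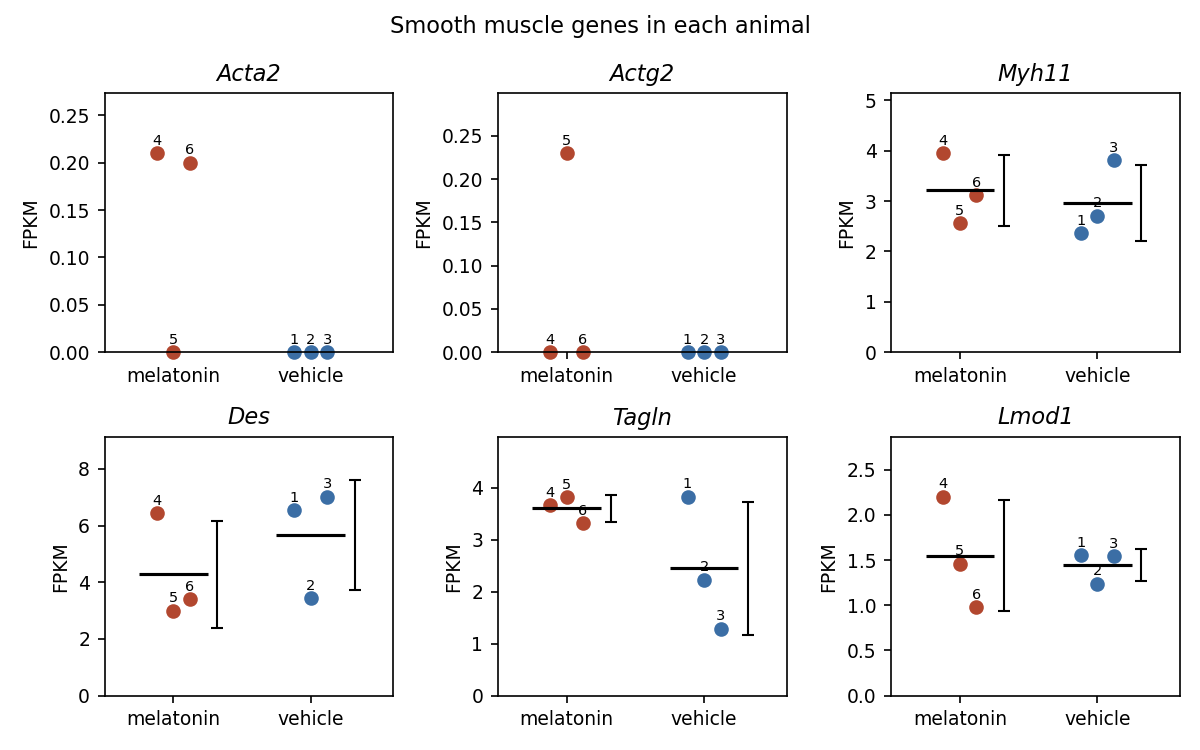
FPKM of each smooth muscle gene in each animal, melatonin left and vehicle right, with animal numbers beside the points. Lines and bars give the mean and SD of 3 animals and are left out for Acta2 and Actg2, which lie at 0 in 4 and 5 of the 6 libraries. The groups overlap or meet at 0 for all 6 genes.

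Among the genes with reads, Des came first. It was listed at 6.45, 3.00 and 3.40 FPKM in melatonin animals 4, 5 and 6, and at 6.55, 3.43 and 7.02 FPKM in vehicle animals 1, 2 and 3. Melatonin animal 4 and vehicle animals 1 and 3 were high and the other 3 animals were low, so that both groups held animals of both kinds. Des had 23.1 to 53.0 estimated reads per library. Its reads had a variance 5.50 times their mean, where counting error alone gives about 1, the largest such ratio among the 6 genes.

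Myh11, the myosin that gives smooth muscle its force, was listed at 3.95, 2.56 and 3.12 FPKM in melatonin animals 4, 5 and 6, and at 2.36, 2.71 and 3.81 FPKM in vehicle animals 1, 2 and 3. Melatonin animal 4 and vehicle animal 3 were highest and the groups overlapped. As the longest transcript of the set, at 6555 bases, it had the most estimated reads, 54.9 to 89.9 per library, and a variance of 3.37 times the mean.

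Tagln, a shape and actin-binding protein of smooth muscle, was listed at 3.67, 3.82 and 3.32 FPKM in melatonin animals 4, 5 and 6, and at 3.83, 2.23 and 1.29 FPKM in vehicle animals 1, 2 and 3. The melatonin animals lay close together and above vehicle animals 2 and 3, while vehicle animal 1 lay level with them. These values rest on 5.0 to 15.1 estimated reads, with a variance of 1.50 times the mean. Lmod1, the actin nucleator, was listed at 2.20, 1.46 and 0.98 FPKM in melatonin animals 4, 5 and 6, and at 1.55, 1.24 and 1.54 FPKM in vehicle animals 1, 2 and 3. Its highest and its lowest value both fell among the melatonin animals. It had 13.7 to 30.0 estimated reads, with a variance of 1.55 times the mean. The genes Des and Lmod1 each overlap a long non-coding RNA gene in the RefSeq annotation, over 276 and 13447 bases of the genome. These are overlaps of whole gene spans, introns included. Overlap of exons was not checked, so whether reads of the pair could be mixed is not known.

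In order of mean level over the 6 animals, the genes stood at 4.98 ± 1.88 FPKM for Des, 3.09 ± 0.67 for Myh11, 3.03 ± 1.04 for Tagln and 1.50 ± 0.41 for Lmod1 (SD, n = 6). Des lay above Myh11 in 6 of 6 libraries. Myh11 lay above Tagln in 3 of 6, and these neighbours did not differ beyond their spread. Tagln lay above Lmod1 in 5 of 6 libraries, and Lmod1 above Acta2 in 6 of 6. By mean level among all 13104 rows, Des ranked 8112, Myh11 8878, Tagln 8900, Lmod1 9750, Acta2 12272 and Actg2 12618.

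The summed level of the 6 genes was 16.48, 11.07 and 11.02 FPKM in melatonin animals 4, 5 and 6, and 14.29, 9.61 and 13.66 FPKM in vehicle animals 1, 2 and 3. Melatonin animal 4 held the highest sum and vehicle animal 2 the lowest, and the groups overlapped. The group means were 12.9 ± 3.14 FPKM after melatonin and 12.5 ± 2.54 FPKM after vehicle (SD, n = 3 each), a ratio of 1.03. Without melatonin animal 4 the ratio was 0.882. Des made up 27.1% to 51.4% of the sum in a library, Myh11 16.5% to 28.3%, Tagln 9.44% to 34.5% and Lmod1 8.89% to 13.3%.

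**Figure D2:**
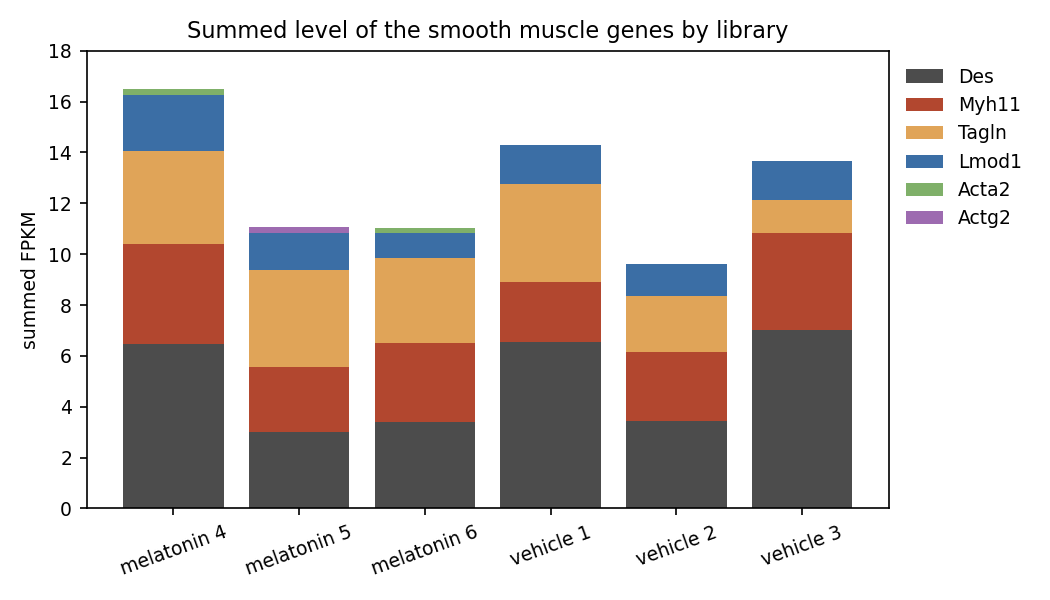
Summed FPKM of the smooth muscle genes in each library, melatonin animals left and vehicle animals right, with each bar divided by gene. The bars run from 9.61 FPKM in vehicle animal 2 to 16.48 FPKM in melatonin animal 4, and Acta2 and Actg2 add at most 0.23 FPKM to any bar.

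The genes did not share one order across animals. Over the 6 pairs of Des, Myh11, Tagln and Lmod1, Pearson's r of log2(FPKM + 1) across the 6 animals ran from -0.43 (Myh11 and Tagln) to 0.66 (Des and Lmod1). Spearman's rho ran from -0.60 to 0.60. No pair passed an exact two-sided permutation test, with adjusted p = 0.621 to 0.753 for r and adjusted p = 0.714 for rho over the 6 pairs. The 2 animals farthest from the median of 1 gene of each pair were then left out, and they were not the same for all pairs. Over the 4 left, r ran from -0.99 to 0.85, so no pair's r can be read firmly.

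Each muscle gene has a relative that works in epithelial and other non-muscle cells. Apart from Myh10 and Vim, the relatives of genes with a row stood far higher on the same FPKM scale. Actb, the cytoplasmic beta-actin, stood at 2710 to 3836 FPKM, where Acta2 did not exceed 0.21. Of the myosins, Myh14 stood at 252 to 302 FPKM, 76.5 to 108 times Myh11 in the same library, and Myh9 at 202 to 220 FPKM, 52.3 to 86.6 times Myh11. Myh10, another non-muscle myosin, stood at 0.55 to 1.36 FPKM, below Myh11 in every library. Tagln2 stood at 580 to 688 FPKM, 154 to 516 times Tagln. Tmod3, which caps actin filaments, stood at 80.4 to 97.0 FPKM, 39.9 to 86.6 times Lmod1. Cnn3, the non-muscle calponin, stood at 24.9 to 47.0 FPKM. Among intermediate filaments, Krt8 stood at 484 to 1192 times Des, while Vim, the vimentin of mesenchymal and immune cells, stood at 3.46 to 9.64 FPKM and so near Des.

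**Figure D3:**
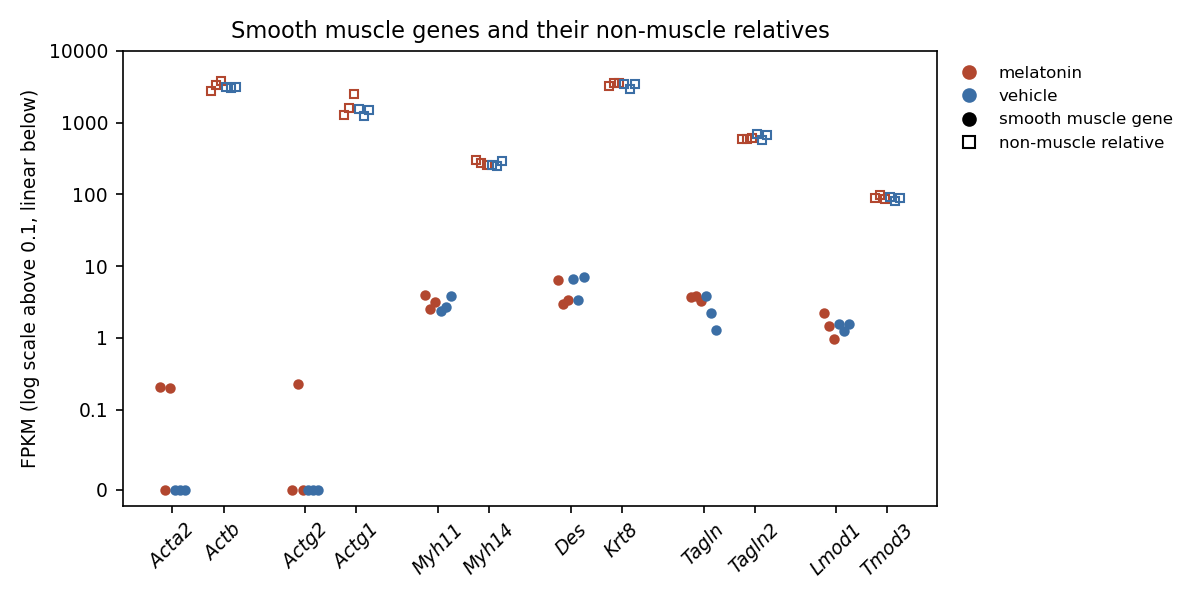
FPKM in each animal of 6 smooth muscle genes (filled circles) and of a non-muscle relative of each (open squares), melatonin and vehicle animals in different colours. The axis is logarithmic above 0.1 FPKM and linear below it. Acta2 and Actg2 lie at or near 0, the other 4 muscle genes between 0.98 and 7.02 FPKM, and the relatives drawn between 80.4 and 3836 FPKM. Myh9, Cnn3 and the far lower Myh10 and Vim are not drawn.

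The wider smooth muscle program divided in the same manner. Of 28 further genes of contraction and its control, 23 had a row and 16 averaged at least 1 FPKM. The highest were Fhl1, a LIM domain protein, at 194 to 349 FPKM in melatonin animals and 278 to 319 FPKM in vehicle animals, and Tpm1, tropomyosin, at 150 to 169 FPKM in melatonin animals and 165 to 195 FPKM in vehicle animals. Mylk, the kinase that switches on myosin, stood at 37.0 to 53.7 FPKM in melatonin animals and 48.8 to 62.0 FPKM in vehicle animals, and Smtn (smoothelin) at 41.9 to 55.4 FPKM in melatonin animals and 45.8 to 49.3 FPKM in vehicle animals. Fhl1, Tpm1 and Mylk are also known outside smooth muscle. At the other end, Myl9, the regulatory light chain of smooth muscle myosin, did not exceed 0.63 FPKM in any library, the actin-binding protein Cald1 0.51, Synpo2 0.48, the caveolar protein Cavin1 0.45 and the desmin partner Synm 0.19. Prkg1, the cGMP-dependent kinase, was at 0 in 5 of 6 libraries.

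**Figure D4:**
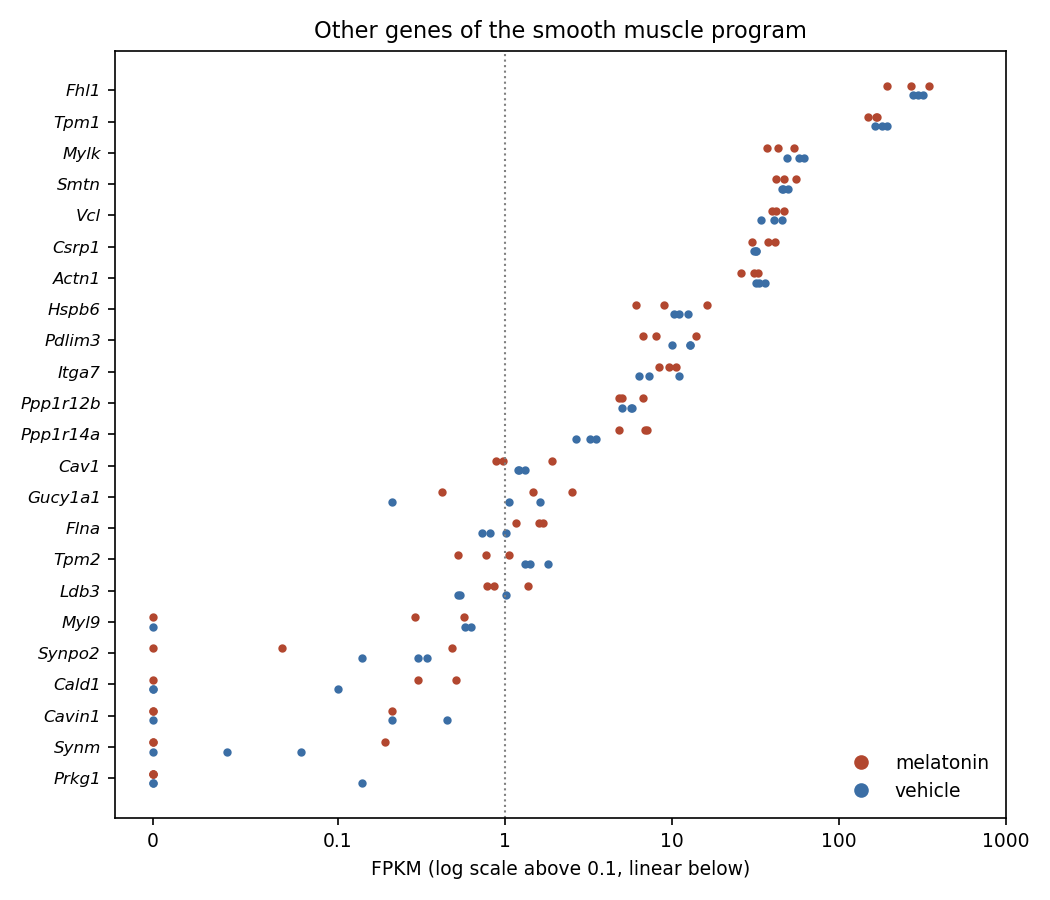
FPKM of 23 further genes of the smooth muscle program in each animal, with melatonin animals drawn above vehicle animals in each row and genes ordered by their mean. The axis is logarithmic above 0.1 FPKM, and the dotted line marks 1 FPKM. Fhl1 and Tpm1 lie at 150 FPKM or higher, while Myl9, Synpo2, Cald1, Cavin1, Synm and Prkg1 lie below 1 FPKM in every animal.

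Of 8 regulators of muscle genes, 3 had a row. Srf stood at 21.1 to 26.0 FPKM in melatonin animals and 21.6 to 25.7 FPKM in vehicle animals, and Gata6 at 27.6 to 33.3 FPKM in melatonin animals and 31.7 to 33.5 FPKM in vehicle animals. Myocd, myocardin, the partner that directs SRF to muscle genes, did not exceed 0.38 FPKM. Of 7 receptors and channels with a row, Chrm3, the muscarinic receptor that epithelium also carries, was highest at 5.04 to 6.42 FPKM, and the muscle channel gene Cacna1c did not exceed 0.07 FPKM.

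Markers of other cells of the gut wall were uneven in the same way, with some genes at or near 0 and others at the level of Des and Myh11. 8 fibroblast genes with a row summed to 10.95 to 14.70 FPKM in melatonin animals and 10.97 to 15.94 FPKM in vehicle animals, most of it Fbln1 at 9.25 to 11.92 FPKM. Col1a2 stood at 1.20 to 3.09 FPKM and Col1a1 at 0.24 to 0.94 FPKM, while Col3a1 did not exceed 0.06 and Dcn 0.36 FPKM. 4 pericyte genes summed to 4.51 to 9.95 FPKM in melatonin animals and 7.47 to 11.62 FPKM in vehicle animals, and of these Notch3 took most, while Pdgfrb did not exceed 0.97 FPKM. 5 endothelial genes summed to 2.63 to 4.91 FPKM in melatonin animals and 2.26 to 4.24 FPKM in vehicle animals, most of it Pecam1 at 1.92 to 3.93 FPKM, with Cdh5 and Kdr at 0 in 3 and 5 libraries. 6 neuronal genes summed to 6.27 to 15.82 FPKM in melatonin animals and 8.15 to 18.02 FPKM in vehicle animals. Most of this was Snap25, at 3.94 to 9.40 FPKM, and Ret, at 0.92 to 7.29 FPKM, while Elavl4 and Uchl1 were at 0 in 5 libraries each. 3 glial genes did not sum to more than 1.59 FPKM. Kit, which marks interstitial cells of Cajal and mast cells, stood at 4.63 to 8.39 FPKM, and Ano1, a chloride channel that epithelium carries as well, at 97.7 to 147 FPKM. The part of these cell types in the values of Des, Myh11, Tagln and Lmod1 was not tested.

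Melatonin was set against vehicle to follow the short-term response of the colonic lining to the hormone. No smooth muscle gene passed the test. limma on log2(FPKM + 1) called 0 of the 4 tested members at an adjusted p under 0.05, where it called 0 of 10137 rows (0%). Before adjustment, p lay under 0.05 for 0 of the 4 members and for 380 rows (3.75%), 185 higher and 195 lower. That background moved with the setting: 485 rows were higher and 671 lower without melatonin animal 4, 125 higher and 128 lower without vehicle animal 3, and 596 higher and 576 lower with sample quality weights. Melatonin and vehicle animals overlapped for each of the 4 members, where 8.38% of rows did not overlap.

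Tagln had the largest difference, a log2 change of 0.48 ± 0.29 (SE, melatonin minus vehicle, 95% interval -0.19 to 1.15, limma adjusted p = 0.972). Des had a log2 change of -0.34 ± 0.32 (interval -1.08 to 0.39, limma adjusted p = 0.972). Both sizes rested on single animals: Tagln stood at 0.76 without vehicle animal 1 and 0.22 without vehicle animal 3, and Des at -0.62 without melatonin animal 4 or vehicle animal 2, -0.17 without melatonin animal 5 and -0.19 without vehicle animal 3. Myh11 stood at 0.09 ± 0.24 (interval -0.46 to 0.64, limma adjusted p = 0.981) and Lmod1 at 0.03 ± 0.27 (interval -0.60 to 0.66, limma adjusted p = 0.993), and the sign of both turned when single animals were left out. The intervals allow changes in either direction for all 4 genes. The median log2 change was 0.06 over the 4 members and -0.02 over all rows tested. With 0.1 FPKM added in place of 1, the log2 change was 0.66 for Tagln, -0.41 for Des, 0.12 for Myh11 and 0.03 for Lmod1. No fold is given for Acta2 and Actg2, which lay within 3 reads in both groups.

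In the wider program limma called 0 of 16 tested genes in either direction (adjusted p under 0.05), 1 had an unadjusted p under 0.05 (3.75% of all rows did), and the median log2 change was -0.01. That gene was Ppp1r14a, an inhibitor of myosin phosphatase. It was listed at 7.12, 6.92 and 4.80 FPKM in melatonin animals 4, 5 and 6, and at 2.67, 3.50 and 3.24 FPKM in vehicle animals 1, 2 and 3, so every melatonin animal lay above every vehicle animal. Its log2 change was 0.80 ± 0.21 (limma adjusted p = 0.972). The groups did not overlap for 3 of the 16, where 8.38% of all rows did not overlap, namely Ppp1r14a and the actin cross-linker Flna, higher after melatonin, and Tpm2, a muscle tropomyosin, lower. Flna stood at 1.17 to 1.68 FPKM in melatonin animals and 0.73 to 1.02 FPKM in vehicle animals, and Tpm2 at 0.52 to 1.06 FPKM in melatonin animals and 1.31 to 1.81 FPKM in vehicle animals. Neither passed (limma adjusted p = 0.972 for both). The mean of Flna in vehicle animals (0.853 FPKM) and that of Tpm2 in melatonin animals (0.783 FPKM) lay below 1 FPKM, so both genes were tested only through the group where they were high, and nothing is read from the count of 3. These 3 were singled out after their values were seen.

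**Figure D5:**
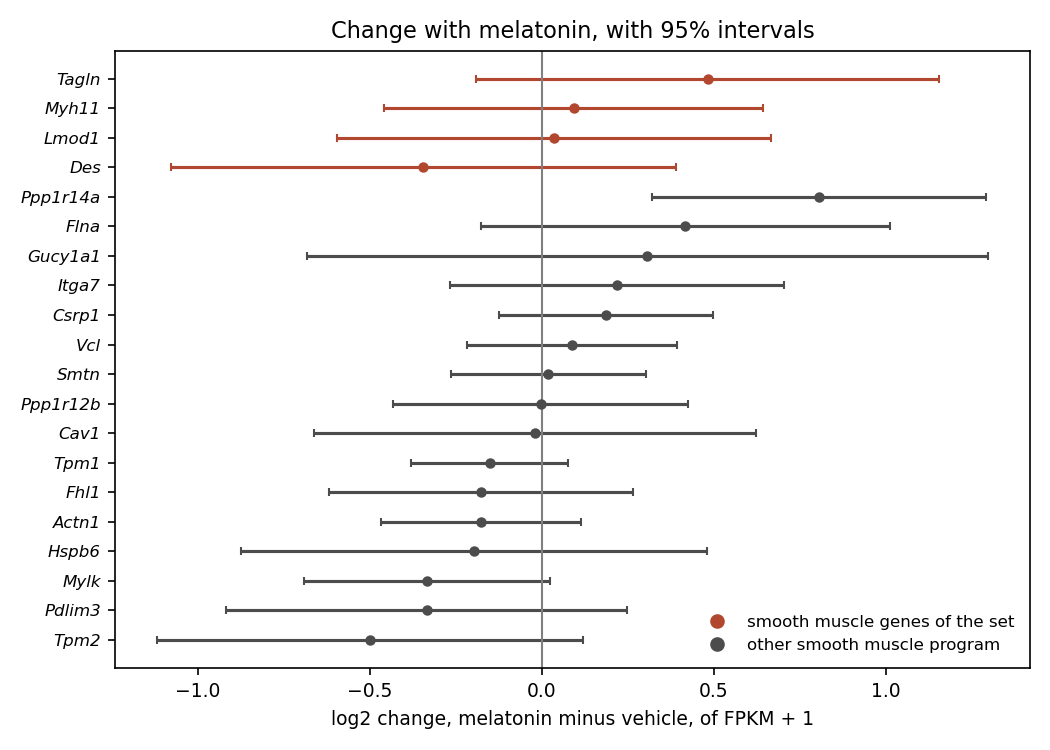
Log2 change of FPKM + 1, melatonin minus vehicle, with limma's 95% intervals, for the 4 tested smooth muscle genes and the 16 tested genes of the wider program (n = 3 animals per group). The intervals of all 4 members span 0, from Des at -0.34 to Tagln at 0.48, and that of Ppp1r14a at 0.80 does not.

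To find genes with a like pattern, the mean of the standardized log2 levels of Des, Myh11, Tagln and Lmod1 was set against 7659 genes with a mean of at least 5 FPKM over the 6 animals. The 8 with the highest Pearson's r were Ndst1 (r = 0.999), Tmem109 (r = 0.995), Paqr8 (r = 0.984), Man2a1 (r = 0.978), Pxylp1 (r = 0.970), Erich1 (r = 0.966), Keap1 (r = 0.964) and Ptpn12 (r = 0.963). With 6 points, 61 of the 7659 genes reached an r of 0.9. These values describe likeness to a mean of 4 genes that did not share one order. Ndst1, an enzyme of heparan sulfate synthesis, was listed at 23.61, 17.05 and 16.61 FPKM in melatonin animals 4, 5 and 6, and at 18.93, 15.87 and 18.64 FPKM in vehicle animals 1, 2 and 3, with melatonin animal 4 the highest. Of the muscle and regulator genes, Srf ranked 98 (r = 0.876) and Smtn 170 (r = 0.836). Mylk ranked 3316 (r = 0.219), Itga7 5729 (r = -0.246) and Csrp1, the lowest of them, 7068 (r = -0.582). The epithelial genes ran from Cdx2 at rank 859 (r = 0.637) to Vil1 at rank 7622 (r = -0.875).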

How the data were processed

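Polyadenylated RNA of 6 animals was sequenced, per the labels' protocols, with no strand marking described. The table holds FPKM values per RefSeq transcript and animal, computed by the authors for each library, per the file headers, with 2 decimals. Bowtie2, RSEM, BWA 0.7.10-r789 and build rn6 are named without roles in the submitters' processing notes. The authors' deposited table also holds log2 ratios of group means and a score headed as a probability, which was not used. For Acta2 and Actg2 its melatonin means (0.14 and 0.0833 FPKM) match averages in which each library's 0 was written as 0.01.

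Accessions matched 12883 of 13647 transcripts to symbols of RefSeq GRCr8, and values of 1 gene were summed, giving 12340 genes and 13104 rows. Depth was found from the low values of transcripts of 300 to 1500 bases: with 36 bases taken off each length, 93.1% to 95.8% of values of up to 4 reads lay within 0.1 of a whole number. Rows with a mean of at least 1 FPKM (10137) entered limma 3.58.1 (R 4.3.3) as log2(FPKM + 1), with a trend on the mean, two-sided p-values and Benjamini-Hochberg adjustment over all of them. The planned choice for counts did not apply to FPKM. The procedure was tested on simulated data. The labels do not give a shared number for animals of both groups. The 7 members, the marker lists and the tests were chosen with earlier results of these data known. The rule for named genes took all members, the non-muscle relative of each, up to 4 of the highest genes of each list and the 8 genes most like the members, and other genes named were chosen after their values were seen. Alternatives were another pseudocount, 2 filters, 2 scalings, sample quality weights, unsummed transcripts, the sum without Des, and leaving out each animal. Another took the mean standardized log2 level of the 4 tested members as a covariate.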

Additional observations from a re-analysis of the deposited data

How the results depend on the processing

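No result for the 4 tested members or the wider program passed an adjusted p of 0.05 under any of the 12 alternatives each was run with. Des stayed negative (log2 change -0.62 to -0.17) and Tagln positive (0.22 to 0.76) in all 12. The 2 filters among these cannot alter a gene's own log2 change, so they say nothing on its sign. With sample quality weights the log2 change of Myh11 turned to -0.085. Leaving out single animals gave -0.031 to 0.24 for Myh11, which turned without melatonin animal 4 or vehicle animal 1, and -0.14 to 0.20 for Lmod1, which turned without melatonin animal 4 or vehicle animal 2. The causes were not tested. Over all rows, leaving out single animals gave 0 to 4 calls, with 4 without melatonin animal 4 and 3 without vehicle animal 1, and dropping the filter gave 1, Mir3074, which was lower. None of the other alternatives gave a call. Among them was the mean standardized log2 level of the 4 tested members as a covariate, with 624 rows at a limma unadjusted p under 0.05. The ratio of summed levels ran from 0.882 to 1.10 without single animals and was 1.25 without Des. The members' mean share of all FPKM was 0.00238%, 0.00223% to 0.00249% without single animals and 0.00145% without Des, which removes the highest gene. No paired analysis was possible because the labels give the animals of the 2 groups different numbers. At this depth 1 read is worth 0.201 to 0.222 FPKM in Acta2 and 0.253 to 0.279 FPKM in Tagln, so levels of 1 or 2 reads in a library could not be compared.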
